A study of Drosophila melanogaster with 75 samples.

Results

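The vacuolar proton ATPase (V-ATPase) subunit genes of Drosophila melanogaster were followed in male heads. The members were all probe sets to which the array's annotation gives exactly 1 gene symbol starting with Vha, which selected 32 of 18769 probe sets, for 31 of 11982 genes so named. Transcripts had been measured on Affymetrix Drosophila arrays in 3 arms of 5, with a separate pool of 20 males behind every array. The males were 5 days old and came from an isogenized stock of the wild type Canton-S. Courtship males had been kept for 20 min with a virgin female that had been cauterized, and control males had been kept without a female. The remaining arm is titled male. Its treatment label is the same as that of the courtship arm, its sample codes differ, and the labels leave unsettled what its males met. A statement on the share of time spent courting stands in the labels of all 3 arms, controls included, and each value is from whole heads.

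The V-ATPase is a rotary pump that spends ATP to move protons into lysosomes, endosomes and synaptic vesicles, and in some epithelia out of the cell. Its cytosolic V1 part holds the A and B subunits that hydrolyse ATP, a central shaft and peripheral stalks, and its membrane V0 part holds a ring of proteolipid c subunits that turns against subunit a, where protons cross. In neurons the proton gradient drives the loading of transmitter into synaptic vesicles, and in insects the same pump energises ion transport in the Malpighian tubules and gut. Flies carry several paralogues of many subunits, of which usually 1 is used in nearly all tissues while the others are restricted to tissues such as the testis, the gut or the nervous system.

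Values are on the log2 scale, taken from the authors' R GC-RMA intensity columns. A probe set's log2 value depends on its own probes, so that values were compared between arrays and not between probe sets. Members were sorted here by general knowledge of the family into broadly used paralogues, restricted paralogues, subunits with 1 gene on the array and accessory proteins. Of the 32 members, 19 probe sets for 18 genes had a mean log2 value of at least 4 and were tested, and 13 had not. The 19 were all 8 probe sets of broadly used paralogues, all 5 of single-gene subunits, both accessory ones and 4 restricted ones (Vha100-1, Vha36-3, VhaM9.7-a and VhaM9.7-c). The 13 dim ones were all restricted paralogues, namely Vha100-3, Vha100-4, Vha100-5, Vha14-2, Vha16-2, Vha16-3, Vha16-4, Vha16-5, Vha36-2, Vha68-3, VhaAC39-2, VhaM9.7-d and VhaPPA1-2. The classes were chosen with earlier results of these data known, so this match of class and filter is no independent finding. Of all 18769 probe sets, 8926 passed the same filter.

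The step between the 2 sets was wide. The dimmest member tested, Vha36-3, had a mean log2 value of 8.06 over the 15 arrays, and the brightest of the others, Vha16-4, had 2.35. All values of the 13 dim members lay between 1.98 and 2.43, where GC-RMA leaves almost no spread and where values have no order. Of 8 testis marker genes named on the array, 6 also fell below the filter. With GC-RMA in GeneSpring 20 members reached a mean log2 value of 4, the added one being Vha16-4 at 4.54, whereas 25 did so with MAS5, 26 with dChip PM-MM and all 32 with dChip PM. A mean log2 value of 4 is not a background level on those other scales. In dChip PM it lies below the values of every member, so that the count of 32 there says nothing on detection. The broadly used A subunit genes Vha68-1 and Vha68-2 were not analysed here, because no probe set carries either symbol alone.

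**Figure D1:**
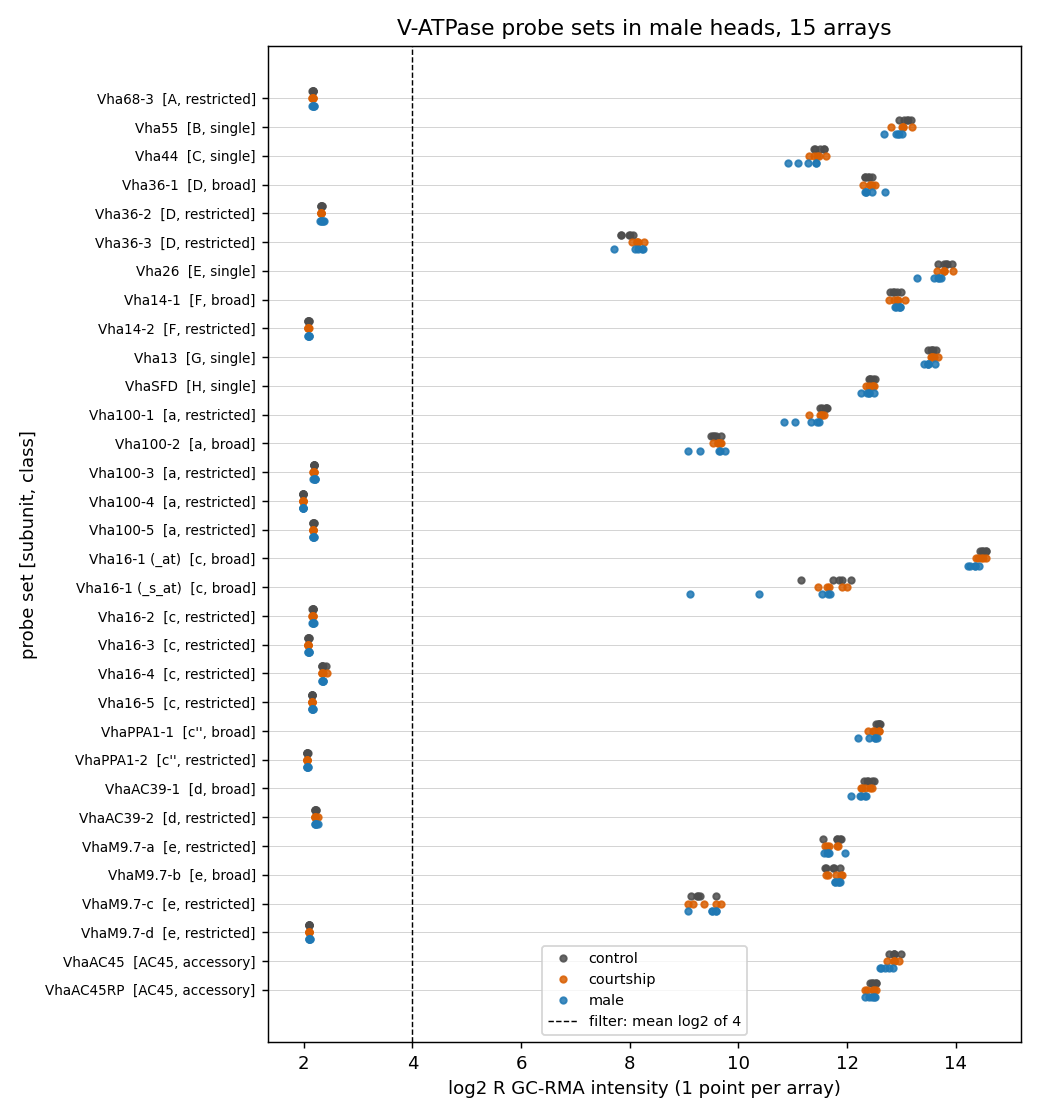
Log2 R GC-RMA intensity of the 32 V-ATPase probe sets on 15 arrays, with 1 point per array, arms in colour and the filter at a mean log2 of 4 as a dashed line. The 13 probe sets left of the line lie between 1.98 and 2.43, and the 19 others are well to its right.

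Paralogues of a subunit lie close together in 3 places. By the order of protein-coding genes in a current RefSeq gene table of the assembly Release 6 plus ISO1 MT, Vha100-2 and Vha100-4 are direct neighbours, with 0 genes between them, yet Vha100-2 was tested and Vha100-4 was dim. VhaPPA1-1, which encodes the c″ proteolipid, and its dim paralogue VhaPPA1-2 have 1 gene between them. Vha16-2 and Vha16-3, with 0 genes between them, were both dim.

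On the arrays as a whole, correlations between arrays ran from 0.939 to 0.996. Degraded RNA raises the 3′-to-5′ ratio, the signal at the 3′ end of a transcript over that at its 5′ end. Averaged over actin, eIF-4a and GAPDH, its log2 was highest on male array 1 (2.98), control array 1 (2.51) and male array 5 (2.24), and lay between 1.46 and 1.88 on the remaining 12. On the first principal component male arrays 1 and 5 lay at -46.2 and -38.3, apart from the rest. Of the 19 members tested, 8 (42.1%) had their lowest value on male array 5, against 23.4% of all 8926 probe sets tested. Another 4 (21.1%) had it on male array 1, against 11.6% of all. Member differences of the male arm from control are therefore also given without these 2 arrays. That choice rested in part on the member values themselves. A smaller downward difference without these arrays is thus partly built in and is no independent test. Control array 1, with a log2 ratio of 2.51, was kept in those comparisons. The members varied little within an arm, with a median SD of 0.105 on the log2 scale against 0.179 over all probe sets tested.

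The comparison of courtship with control asks whether pump transcripts differ after 20 min with a female. limma called 0 of the 19 members at an adjusted p of 0.05 and 0 of 8926 probe sets (0%). At an unadjusted p of 0.05 it gave 0 members, where 2.86% of all probe sets passed. The members' differences ran from -0.09 to 0.19 on the log2 scale, 12 of 19 lay below 0 (45.6% of all probe sets did), and their median was -0.01 against 0.01 over all. By place in the pump the median difference was 0.01 over 8 V1 probe sets, -0.04 over 9 V0 probe sets and -0.03 over 2 accessory ones.

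The largest difference belonged to Vha36-3, a paralogue of the D subunit of the central shaft. Its log2 values were 8.01, 7.84, 7.85, 8.06 and 7.99 on the 5 control arrays and 8.05, 8.26, 8.15, 8.14 and 8.13 on the 5 courtship arrays. Only courtship array 1 lay within the range of the controls. The mean difference was 0.19 ± 0.09 (SE), with a limma p of 0.0533 unadjusted and 0.999 adjusted. The broadly used D subunit gene Vha36-1 stood at 12.42 ± 0.08 (SD, n = 5) in courtship heads and 12.38 ± 0.05 in controls. At the other end Vha100-1 stood at 11.49 ± 0.11 against 11.58 ± 0.06, a difference of -0.09 ± 0.11 (SE).

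The comparison of the male arm with control held the larger differences, most of them downward. limma called 0 of the 19 members at an adjusted p of 0.05, where it called 327 of 8926 probe sets (3.66%), 194 higher (2.17%) and 133 lower (1.49%). At an unadjusted p of 0.05, 8 members were lower and 0 higher, where 15.6% of all probe sets were lower and 18.5% higher. Below 0 were 14 of 19 members against 47.1% of all probe sets, and the median difference was -0.09 against 0.02 over all. The smallest adjusted p among members was 0.0619 (limma, Vha100-1), so that many members leaned downward and none passed alone. These are whole heads, in which fewer cells of a type and less RNA per cell cannot be told apart.

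**Figure D2:**
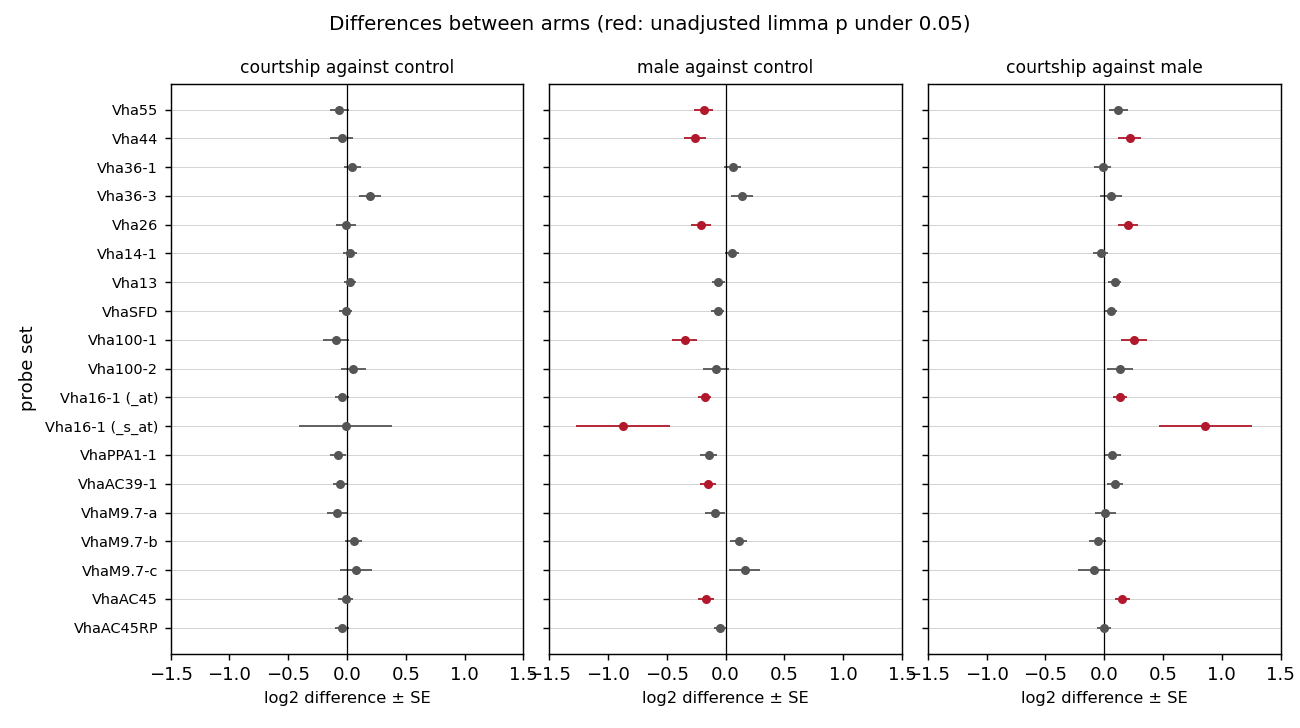
Log2 difference ± SE (limma, 5 against 5 arrays) of the 19 tested V-ATPase probe sets in the 3 comparisons, with unadjusted p under 0.05 in red. Red points number 0 in the first panel, 8 in the second, all lower, and 6 in the third, all higher.

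Among V1 subunits, 5 of 8 probe sets lay below 0 in the male arm and the median difference was -0.06. Vha44 encodes subunit C, which leaves the complex when V1 and V0 come apart. Its values were 11.42, 11.39, 11.58, 11.58 and 11.50 in controls and 11.10, 11.29, 11.43, 11.43 and 10.92 in the male arm. The arms overlapped, with male arrays 1, 2 and 5 below all controls, and the difference was -0.26 ± 0.10 (SE; limma adjusted p = 0.0886). Without male arrays 1 and 5 it was -0.11 ± 0.08 (SE). Vha26, subunit E of the peripheral stalk, had control values of 13.67, 13.84, 13.82, 13.93 and 13.78 and male-arm values of 13.61, 13.70, 13.73, 13.67 and 13.29. Male array 5 was by far the lowest and the difference was -0.21 ± 0.09 (SE; limma adjusted p = 0.109). It was likewise -0.11, ± 0.07 (SE), without male arrays 1 and 5.

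Vha55, the B subunit that shares the catalytic sites with A, stood at 13.08 ± 0.09 (SD, n = 5) in controls and 12.90 ± 0.13 in the male arm, a difference of -0.19 ± 0.08 (SE; limma adjusted p = 0.123), or -0.13 ± 0.08 without male arrays 1 and 5. The stalk subunit G gene Vha13 stood at 13.56 ± 0.05 (SD, n = 5) against 13.50 ± 0.07, and VhaSFD, the regulatory subunit H, at 12.45 ± 0.05 against 12.39 ± 0.08. Both differences were smaller than the SD of the male arm, and they were -0.07 and -0.02 without these 2 arrays. The central shaft genes leaned the other way without passing the test. Vha14-1 (subunit F) differed by 0.05, Vha36-1 by 0.06 and Vha36-3 by 0.14 (limma adjusted p = 0.545, 0.576 and 0.295), and the first pair of them by 0.04 and 0.01 without male arrays 1 and 5. On Vha36-3, male array 1 was low at 7.72 while the other male arrays held 8.25, 8.23, 8.15 and 8.10, all above the highest control of 8.06. Without male arrays 1 and 5 its difference was 0.26 ± 0.07 (SE; limma adjusted p = 0.12).

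Among V0 subunits, 7 of 9 probe sets lay below 0 and the median difference was -0.14. Vha100-1 encodes the subunit a used in neurons, where it is known for roles at synapses and in photoreceptor endosomes. Its values were 11.54, 11.62, 11.64, 11.61 and 11.50 on the control arrays, 11.54, 11.57, 11.50, 11.53 and 11.30 on the courtship arrays and 10.84, 11.49, 11.34, 11.45 and 11.05 on the male-arm arrays. All male-arm values lay below all control values, while courtship overlapped with both. The difference from control was -0.35 ± 0.11 (SE), 1.27-fold lower, with a limma p of 0.00619 unadjusted and 0.0619 adjusted. Without male arrays 1 and 5 it was -0.16 ± 0.07 (SE; limma adjusted p = 0.22). With all arrays and limma adjusted for the 3′-to-5′ ratio it was -0.29 ± 0.08 (SE; adjusted p = 0.0507). In the authors' other processings it was -0.19 with dChip PM, -0.22 with dChip PM-MM, -0.26 with MAS5 and -0.35 with GeneSpring GC-RMA, where alone of these it passed (limma adjusted p = 0.046).

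Neuron markers lay below 0 beside Vha100-1, and limma called 0 of them. All 5 neuron markers measured and all 4 photoreceptor markers lay below 0 in the male arm, with medians of -0.44 and -0.21. Without male arrays 1 and 5 the neuron markers differed by -0.05, -0.33, 0.08, -0.50 and -0.15. Of the photoreceptor markers, the channel gene trp passed (-0.34 ± 0.09 SE, limma adjusted p = 0.0485). Without these 2 arrays trp did not pass (-0.27 ± 0.10 SE, limma adjusted p = 0.16), and the others differed by -0.30, -0.10 and -0.04. Of markers of the other cell types limma called 0. All 3 muscle markers lay below 0 (median -0.12). All 3 glia markers (median 0.07) and the 1 haemocyte marker tested (0.60) lay above. Without male arrays 1 and 5 the muscle markers differed by -0.16, 0.08 and -0.04, and the glia markers by 0.07, 0.24 and 0.27. With all arrays the fat body markers differed by 0.02 and 0.76, and the testis markers tested by 0.04 and -0.67. Those of the Malpighian tubule differed by 0.14 and -0.18, and the gut marker tested by 0.40. The log2 of the summed linear intensities of the neuron list ran from 13.58 to 14.11 in controls and from 13.56 to 13.85 in the male arm. That of the photoreceptor list ran from 16.86 to 16.90 and from 16.64 to 16.77. Such a sum mostly follows its brightest probe set. In the neuron list that probe set had a mean log2 value of 13.65, against 10.36 for the next. The part of these cell types in the Vha100-1 difference was not tested.

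Vha16-1, the proteolipid that forms most of the c ring, had a pair of probe sets that behaved differently. On the probe set with the suffix _at the values were 14.46, 14.50, 14.56, 14.56 and 14.48 in controls, 14.51, 14.56, 14.47, 14.38 and 14.41 in courtship heads and 14.27, 14.44, 14.37, 14.36 and 14.22 in the male arm. The male arm lay wholly below the control arm and differed by -0.18 ± 0.06 (SE; limma adjusted p = 0.0669), and by -0.12 ± 0.06 without male arrays 1 and 5. Besides Vha100-1 this was the only member without overlap, 2 of 19 lower where 3.73% of all probe sets were, and 0 higher where 7.26% were. On the one with the suffix _s_at the values were 11.16, 11.74, 11.85, 12.07 and 11.91 in controls, 11.47, 12.00, 11.63, 11.91 and 11.66 in courtship heads and 9.11, 11.53, 11.69, 11.64 and 10.39 in the male arm. Male arrays 1 and 5 stood far below all others, and control array 1 was the lowest of its arm. The difference of -0.88 ± 0.40 (SE; limma adjusted p = 0.137) was the largest of any member, and without male arrays 1 and 5 it was -0.12 ± 0.17.

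The 3 arrays that were low on the _s_at probe set are the 3 with the highest 3′-to-5′ ratios. The log2 difference between the 2 Vha16-1 probe sets, _s_at minus _at, was -5.16 on male array 1, -3.84 on male array 5 and -3.29 on control array 1, and between -3.03 and -2.47 on the other 12 arrays. In dChip PM it was -3.65, -2.76 and -2.16 on these arrays against -1.93 to -1.38 on the others, and in MAS5 -3.48, -2.60 and -2.46 against -2.08 to -1.51. When limma was given this ratio as a covariate, the male-arm difference was -0.58 ± 0.16 (SE) on the _s_at probe set and -0.16 ± 0.06 on the _at one (adjusted p = 0.0503 and 0.071). Whether RNA quality accounts for the gap between the probe sets was not tested.

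**Figure D3:**
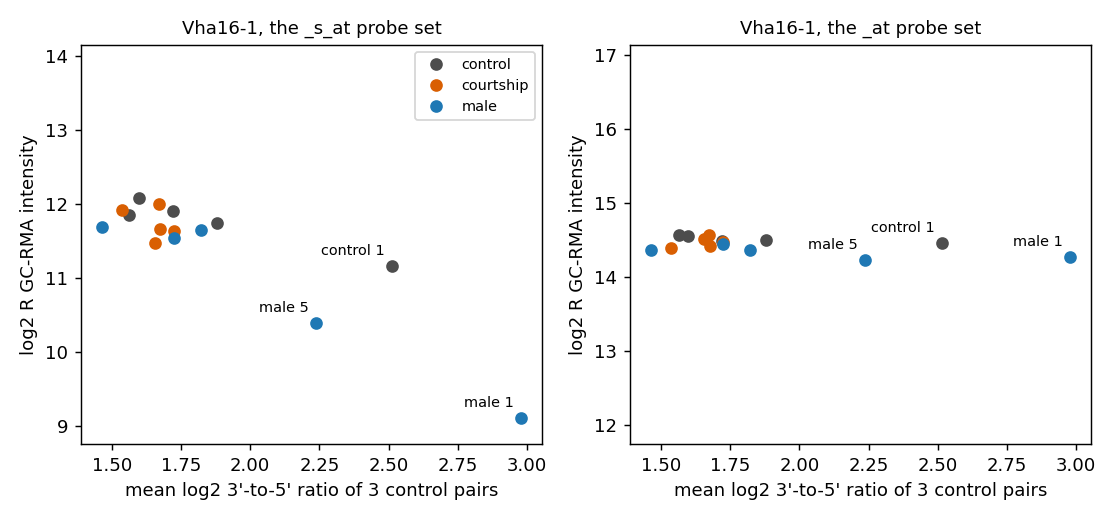
Log2 R GC-RMA intensity of the 2 Vha16-1 probe sets against the array's log2 3′-to-5′ ratio, averaged over 3 control transcripts, with 1 point per array, arms in colour and both vertical axes of the same length. Male arrays 1 and 5 and control array 1 are low on the _s_at probe set (9.11, 10.39 and 11.16), while the _at probe set stays between 14.22 and 14.56 on all 15 arrays.

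The other V0 genes moved less. VhaAC39-1, subunit d, which couples the shaft to the ring, stood at 12.41 ± 0.07 (SD, n = 5) in controls and 12.26 ± 0.11 in the male arm, a difference of -0.15 ± 0.07 (SE; limma adjusted p = 0.126), or -0.12 ± 0.07 without male arrays 1 and 5. VhaPPA1-1 stood at 12.58 ± 0.03 (SD, n = 5) against 12.43 ± 0.14, with male array 5 lowest at 12.20, and differed by -0.14 with all arrays and -0.06 without male arrays 1 and 5. Vha100-2, the broadly used subunit a, was low on male array 1 (9.08) and male array 5 (9.29), while the other male arrays (9.65, 9.76 and 9.65) lay close to the controls at 9.57 ± 0.07 (SD, n = 5). Its difference was -0.08 ± 0.11 (SE) and turned to 0.12 without these 2 arrays. Of the small membrane subunit e, VhaM9.7-a differed by -0.09, VhaM9.7-b by 0.11 and VhaM9.7-c by 0.16, with limma adjusted p-values of 0.458, 0.294 and 0.396. Without the same 2 arrays these differences were -0.14, 0.09 and 0.24.

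Of the accessory proteins, VhaAC45, which assists assembly and sorting of the pump, stood at 12.87 ± 0.08 (SD, n = 5) in controls and 12.71 ± 0.10 in the male arm. The difference was -0.17 ± 0.07 (SE; limma adjusted p = 0.0999), and -0.13 ± 0.07 without male arrays 1 and 5. Its relative VhaAC45RP stood at 12.48 ± 0.05 (SD, n = 5) against 12.44 ± 0.07, a difference of -0.04 with all arrays and -0.06 without those 2.

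The count of lower members depended on male arrays 1 and 5. Without them limma gave 1 member lower and 1 higher at an unadjusted p of 0.05, in place of 8 lower and 0 higher. At that threshold 8.93% of all probe sets with a plain _at were lower, 14.9% of those with _s_at and 15.9% of those with _a_at. At the adjusted threshold limma called 0 of all 8926 probe sets. The members' median difference was then -0.07 against 0.00 over all, and 13 of 19 still lay below 0. With control array 1 left out as well, limma gave 3 members lower and 1 higher at the unadjusted threshold, and 14 of 19 lay below 0. With all arrays kept and limma adjusted for the 3′-to-5′ ratio, 8 members were lower and 1 higher at that threshold. Their median difference in this adjusted model was -0.12 against 0.00 over all. Single arrays also decided the count of 8, which was 3 without male array 5, 4 without control array 4 and 5 without control array 2. The matching share of all probe sets is not given for these single arrays, for control array 1 left out as well, or for the adjusted model. The median was -0.06 without male array 5, -0.14 without control array 5 and -0.15 without male array 3. By sign alone, 13 members lay below 0 and 3 above 0 in each of the authors' 5 processings, and 3 were mixed.

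Courtship against male shares its arrays with the other comparisons and is no independent check of them. limma called 0 of 19 members and 0 of 8926 probe sets (0%), and at an unadjusted p of 0.05 it gave 6 members higher in courtship heads and 0 lower, where 7.95% of all probe sets were higher and 7.21% lower. Above 0 were 15 of 19 members against 48.1% of all. The 6 were VhaAC45 (0.15), Vha100-1 (0.26), Vha26 (0.20), Vha44 (0.22) and Vha16-1 on both probe sets (0.13 and 0.86), with limma adjusted p-values of 0.325 to 0.328. The members' median difference was 0.09 against -0.01 over all. The count of 6 was fragile, although the matching share of all probe sets is not given for the counts that follow. It was 0 without male array 5, courtship array 2 or courtship array 3, without male arrays 1 and 5 together, in a model of only the 2 arms, and with the 3′-to-5′ covariate, 1 without courtship array 1 or 4, and 3 without male array 1.

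Paralogues of the same subunit were then compared within arrays. A ratio of 2 probe sets has no meaning as a level, but its difference between arms shows whether 1 paralogue moved against the other. Subunits a, D and e and the AC45 proteins had at least 2 genes bright enough, which gave 6 pairs and 18 tests over the 3 comparisons, with the 3 pairs of subunit e sharing probe sets. Exact permutation tests of 5 against 5 arrays, whose smallest two-sided p is 0.00794, gave 1 test at an unadjusted p under 0.05 and 0 after Benjamini-Hochberg over the 18. A single ratio at that smallest p has an adjusted p of 0.143. The adjusted test therefore could not call 1 ratio that changed alone.

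That test was the neuronal over the broadly used subunit a, Vha100-1 over Vha100-2. The log2 ratio was 1.98, 2.13, 1.97, 2.08 and 1.91 on the control arrays, 2.01, 1.95, 1.88, 1.87 and 1.63 on the courtship arrays and 1.76, 1.84, 1.58, 1.79 and 1.76 on the male-arm arrays. The male arm lay wholly below the controls, and male arrays 1 and 5 were close to the others of their arm. The means were 1.75 ± 0.10 (SD) and 2.01 ± 0.09, a difference of -0.27, with an exact permutation p of 0.00794, the smallest the design allows, and an adjusted p of 0.143. Without male arrays 1 and 5 the difference was -0.28, still without overlap (exact permutation p = 0.0357, adjusted 0.321). Courtship differed from control by -0.15 (exact permutation p = 0.0714, adjusted 0.393) and from the male arm by 0.12 (p = 0.175, adjusted 0.393). The size depended on the processing, with -0.25 in GeneSpring GC-RMA, -0.15 in MAS5, -0.05 in dChip PM and -0.03 in dChip PM-MM, and the arms overlapped in the last 3.

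**Figure D4:**
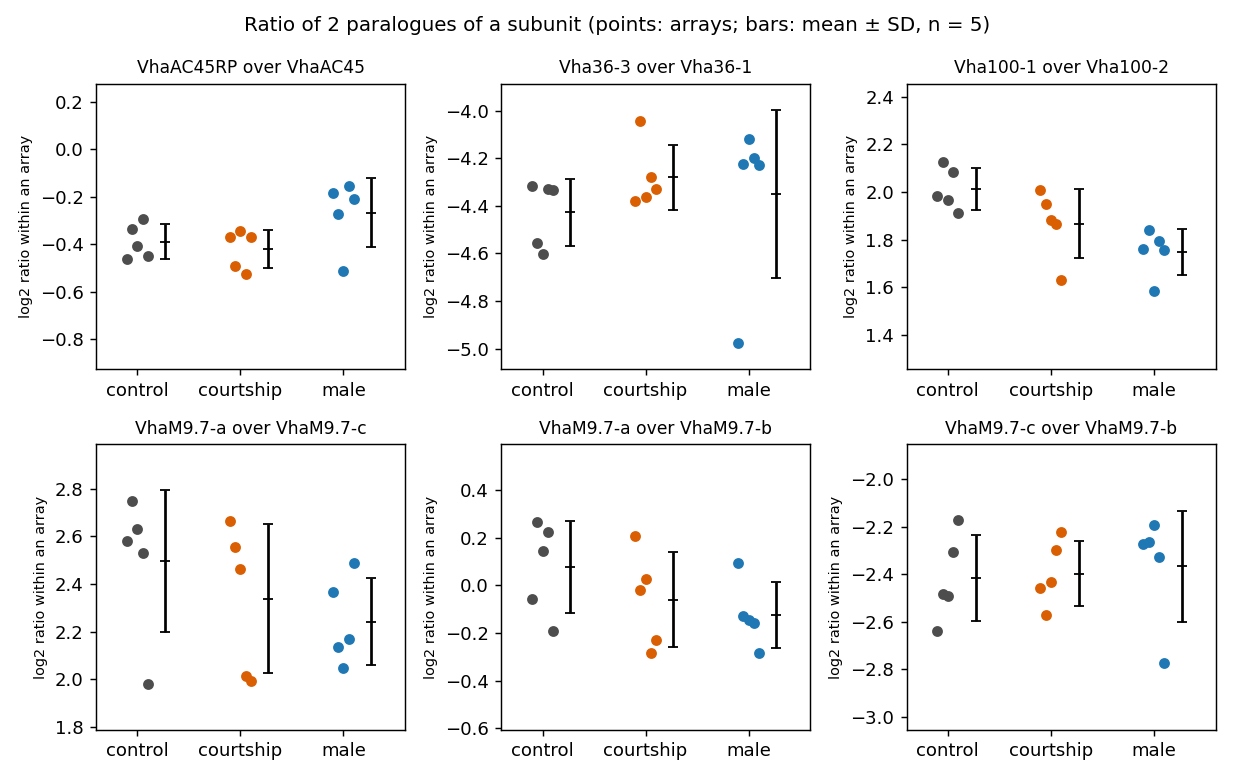
Log2 ratio of 2 paralogues of a subunit on each array by arm, with bars for the mean ± SD (n = 5), all panels spanning the same range. Vha100-1 over Vha100-2 has male-arm values of 1.58 to 1.84 below control values of 1.91 to 2.13, and in the other pairs the arms overlap, in male against control for 3 of them only through 1 array.

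The remaining ratios overlapped between all arms when all arrays were used, and for 3 of them that overlap in male against control rested on 1 array. That array was left out because it made the overlap, so the lack of overlap without it is no test. Vha36-3 over Vha36-1 was -4.43 ± 0.14 (SD, n = 5) in controls, -4.28 ± 0.14 in courtship heads and -4.35 ± 0.35 in the male arm, where male array 1 lay at -4.98. With all arrays the male arm differed from control by 0.08 (exact permutation p = 0.714). Without male array 1 the male arm lay wholly above control, by 0.24, and by 0.25 without male arrays 1 and 5. VhaAC45RP over VhaAC45 was -0.39 ± 0.07 in controls, -0.42 ± 0.08 in courtship heads and -0.27 ± 0.14 in the male arm. With all arrays the exact permutation p for the male arm was 0.127 against control and 0.0794 against courtship. Without male array 3 the male arm lay wholly above both others, by 0.18 over control and 0.21 over courtship. Without male arrays 1 and 5 it differed from control by 0.08 with overlap. For subunit e, VhaM9.7-a over VhaM9.7-b was 0.08 ± 0.20 in controls, -0.06 ± 0.20 in courtship heads and -0.12 ± 0.14 in the male arm. VhaM9.7-a over VhaM9.7-c was 2.50 ± 0.30, 2.34 ± 0.31 and 2.24 ± 0.18 in the same order. With all arrays its male arm differed from control by -0.25 (exact permutation p = 0.143). Without control array 5 its male arm lay wholly below control, by -0.38. VhaM9.7-c over VhaM9.7-b was -2.42 ± 0.18, -2.40 ± 0.14 and -2.37 ± 0.23. Without male arrays 1 and 5 the 3 ratios of subunit e differed from control by -0.22, -0.38 and 0.16, all with overlap.

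Genes that work with the pump were counted in male against control, the comparison with calls. Each gene was represented by 1 probe set, also where it had several. Of 5 vesicular transmitter transporters, which are driven by the proton gradient, all lay below 0 with a median of -0.47, and limma called 0. VGAT, the GABA transporter, differed by -0.59 ± 0.22 (SE) and VGlut, the glutamate transporter, by -1.23 ± 0.50 (limma adjusted p = 0.0876 and 0.105). These differences were -0.28 ± 0.16 and -0.63 ± 0.51 (SE) without male arrays 1 and 5, and all 5 transporters still lay below 0. With all arrays VGlut averaged 4.91 in the male arm, not far above the filter. Of 10 lysosomal genes 7 lay above 0, with a median of 0.15. Hexo2, a hexosaminidase, rose by 0.48 ± 0.12 (SE; limma adjusted p = 0.0476), and the membrane transporter gene Cln7 differed by 0.37 ± 0.11 (adjusted p = 0.0539). Without male arrays 1 and 5 Hexo2 differed by 0.46 and Cln7 by 0.28, and Hexo2 was no longer called, as no probe set was.

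Of 8 partner ion transporters limma called 0, with 5 below 0 and a median of -0.10. The chloride channel gene ClC-a differed by -0.30 ± 0.10 (SE) and the sodium/proton exchanger gene Nhe2 by -1.35 ± 0.48 (limma adjusted p = 0.0751 and 0.0806). Without male arrays 1 and 5 these differences were -0.25 and -0.77. With all arrays Nhe2 averaged 4.06 in the male arm, close to the filter at 4. Of 3 genes for assembly and regulation 0 were called. Rbcn-3B, part of the complex that helps V1 join V0, differed by -0.40 ± 0.16 (SE, limma adjusted p = 0.101), while mtd differed by -0.08 ± 0.11. Without male arrays 1 and 5 they differed by -0.22 and -0.09. Of the TORC1 partners at the lysosome only RagC-D was tested, with 0.12 ± 0.08 (SE). In courtship against control and in courtship against male limma called 0 genes of these lists.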

How the data were processed

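Per the labels, the authors processed 15 arrays in 5 ways (MAS5, dChip on PM and on PM-MM, and GC-RMA, once with R and once with GeneSpring) and deposited 75 columns of intensity on a linear scale, judged from the values. GCOS 1.2 and GCRMA are named by the submitters' processing notes. How arrays were scaled, and with which other versions, is not given in the sources used here. Log2 was taken of the R GC-RMA columns. In the PM-MM columns 722 values below 1 were set to 1. After 183 control probe sets were left out, the 8926 of 18769 with a mean log2 value of at least 4 entered a one-way limma model (lmFit, eBayes) over all 15 arrays, with Benjamini-Hochberg adjustment within each comparison and two-sided p-values. The residual degrees of freedom were 12 and the prior 2.6. Each array is 1 pool, so p-values measure the spread between pools, and precision is limited by the number of arrays.

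Paralogue ratios were tested by exact permutation of arrays, with the brighter probe set of a gene that had several, and adjusted over all 18 tests. Both procedures were tested on simulated data. Gene names came from the array's annotation, in which 13647 probe sets have 1 symbol, 402 several and 4720 none. All 32 members matched a current RefSeq gene table, used only for names and gene order, and 0 symbols changed. Every member may be named. Genes of other lists were represented by 1 probe set each, although some had several, such as VGlut and ClC-a with 2 and mtd with 3. These genes were named if they passed the threshold or were among the 2 of their list with the smallest p in male against control. The members, paralogue classes and lists were chosen with earlier results of these data known.

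Alternatives were the other 4 processings, other filters, scalings and variance settings, a block for the replicate number, a block for the code's first letter, a covariate for the 3′-to-5′ ratio, only the arms compared, a threshold of 0.10, and arrays left out. R 4.3.3, limma 3.58.1, Python 3.11.15, pandas 2.3.3, numpy 2.4.6, scipy 1.17.1 and matplotlib 3.10.9 were used.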

Additional observations from a re-analysis of the deposited data

Results flagged for a closer look

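Of 75 groups of 5 values (57 of single members, 18 of paralogue ratios), 9 held a value far from the other 4, where chance gives about 1 in 20 groups. In courtship heads, array 5 lay low on Vha100-1 at a log2 value of 11.30, against 11.50 to 11.57 on the others. In the male arm, array 5 lay low on Vha26 (13.29 against 13.61 to 13.73) and on VhaM9.7-c (9.08 against 9.51 to 9.60). Male array 1 lay low on Vha36-3 (7.72 against 8.10 to 8.25) and high on VhaM9.7-a (11.97 against 11.57 to 11.68). Among controls, array 5 lay low on VhaM9.7-a, at 11.57 against 11.82 to 11.88.

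The paralogue ratios that stood apart involve the same probe sets. The log2 ratio of Vha36-3 over Vha36-1 was -4.98 on male array 1, against -4.23 to -4.12. That of VhaM9.7-a over VhaM9.7-c was 1.98 on control array 5, against 2.53 to 2.75. That of VhaM9.7-c over VhaM9.7-b was -2.77 on male array 5, against -2.33 to -2.19.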

How the results depend on the processing

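In courtship against control and in courtship against male no alternative called a member, and the count of paralogue ratios past the threshold was 0 under all alternatives. The 0 for the ratios says little. A single ratio at the smallest exact p of 5 against 5 arrays has an adjusted p of 0.143. For male against control that smallest p rises to 0.0159 without control array 1 and to 0.0357 without male arrays 1 and 5. In male against control, members called went from 0 to 1 with GeneSpring GC-RMA (Vha100-1, -0.35, adjusted p = 0.046), 1 with a trend and robust variance (the _at probe set of Vha16-1), 2 with the code letter as a block (Vha100-1 at -0.47, the _s_at probe set of Vha16-1 at -1.40), 3 with array weights (Vha100-1 at -0.22 and the _at probe set of Vha16-1 at -0.14 lower, Vha36-3 at 0.28 higher) and 4 at a threshold of 0.10 (Vha100-1, the _at probe set of Vha16-1, Vha44 and VhaAC45). Over all 8926 probe sets these settings called 613, 631, 980, 1873 and 2083, in the same order. The replicate number as a block gave 4 calls (Vha100-1, the _at probe set of Vha16-1, Vha44 and Vha55), and 1690 calls in all. Same-numbered arrays of 2 arms correlated from -0.288 to 0.473 in their deviations, not every array correlated best with its own number, and the numbers are therefore not taken as pairs. For the paralogue ratios, exact sign flips of 5 such differences give at best p = 0.0625. The causes were not tested. The median in courtship against male was 0.17 with the code letter as a block. With dChip PM, or with no filter, 32 members passed.

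Left-out arrays gave medians of -0.05 to 0.01 in courtship against control, 0.06 to 0.10 in courtship against male and -0.15 to -0.06 in male against control, and 0 calls throughout. Of 1881 member values under alternatives 87 changed sign, 9 of them in male against control, and none was past a threshold. In male against control these were Vha100-2 (0.080 with array weights, 0.12 without male arrays 1 and 5, 0.12 also without control array 1, -0.15 to 0.020 with arrays left out), Vha36-1 (-0.00195 without those 3 arrays, -0.00443 to 0.087 with arrays left out), Vha14-1 in dChip PM-MM (-0.034), and, in MAS5, Vha36-3 (-0.00488) and VhaM9.7-a (0.040). Ratios changed sign in MAS5 for Vha36-3 over Vha36-1 (-0.12, and -0.056 in courtship against control) and VhaM9.7-c over VhaM9.7-b (-0.035, and -0.00367 to 0.15 with arrays left out). Vha100-1 over Vha100-2 in courtship against male was -0.048 in dChip PM and -0.049 in dChip PM-MM.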

Other observations

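The suffix of a probe set name says how its probes map to transcripts, and _s_at marks probes that may match more than 1 transcript. This split was looked at after the values were seen. In male against control all 7 members with _s_at lay below 0, with a median log2 difference of -0.21, and 6 of them had an unadjusted limma p under 0.05. Over all 1387 probe sets tested with this suffix 62.7% lay below 0, the median was -0.08, and 22.5% were lower at that threshold. Without male arrays 1 and 5, 6 of the 7 members lay below 0 and 1 was lower at that threshold, against 61.6% and 14.9% of all with the suffix. Of the 11 members with a plain _at, 6 lay below 0 with a median of -0.04, and 2 had an unadjusted p under 0.05, against 41% below 0, a median of 0.05 and 12.7% lower over all 6371 such probe sets. The remaining member, VhaSFD with _a_at, differed by -0.07. The suffixes fall unevenly over the subunits, so that suffix and gene cannot be told apart.

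Among restricted paralogues bright enough to test, Vha100-1 was lower in the male arm (-0.35), while Vha36-3 and VhaM9.7-c differed by 0.14 and 0.16 and VhaM9.7-a by -0.09, so that the median over the 4 was 0.02. The 5 single-gene subunits all lay below 0 with a median of -0.19, and the 8 probe sets of broadly used paralogues had a median of -0.11.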
